A study of Homo sapiens with 42 samples.

Results

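The response of IMR90 ER:RAS cells to 4-hydroxytamoxifen (4OHT) while the coatomer subunit COPB2 was depleted was described from 12 of the 42 RNA-seq libraries of the series. The 12 were chosen by their labels: every library of ER:RAS cells that carried an shRNA against COPB2, 6 given 4OHT and 6 given the vehicle DMSO, with 3 libraries for each of 2 hairpins in each treatment. The 6 ER:RAS libraries with a control shRNA, 3 with 4OHT and 3 with DMSO, served as the comparator and share no library with the 12. IMR90 is an established strain of human lung fibroblasts, and ER:RAS is a retrovirally delivered fusion of the oestrogen receptor with oncogenic HRAS that 4OHT switches on, which drives the cells into oncogene-induced senescence (OIS). Cells received 100 nM 4OHT or DMSO, and after 7 days all of them, controls included, received doxycycline at 1 µg/ml for 72 h, which switched on the hairpin from an inducible miR-E vector, with RNA collected at day 10. The labels give the genotype of the COPB2 hairpin libraries as COPI Knockdown and that of the control libraries as WT. Senescence was thus under way before COPB2 was depleted, so these libraries show a programme that persists or takes shape during the knockdown. The model is a single strain with a forced oncogene. The study describes loss of COPB2 as lethal to senescent cells, so the RNA comes from the cells still present at collection. In bulk RNA, fewer cells of a kind and less RNA per cell cannot be told apart.

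COPI vesicles carry cargo from the Golgi back to the endoplasmic reticulum (ER) and between Golgi cisternae, and their coat, coatomer, is built from several subunits of which COPB2 is one. When unfolded proteins gather in the ER, sensors in its membrane start the unfolded protein response: PERK slows translation and raises the transcription factor ATF4 with its targets DDIT3 and ATF3, while ATF6 and IRE1, the latter through XBP1, raise chaperones such as HSPA5 and the machinery that degrades misfolded proteins. Senescent fibroblasts stop dividing, hold CDK inhibitors such as CDKN1A at a high level, and secrete cytokines, chemokines and proteases, the senescence-associated secretory phenotype (SASP). Most of these proteins leave the cell through the ER and Golgi, whereas interleukin 1 lacks a signal peptide and leaves by another route.

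The hairpins define the depleted state, so their guides are shown, written 5′ to 3′ as DNA with the seed, bases 2 to 8, in capitals.
shRNA 1 against COPB2: tTAAATATctttacaatgctgt
shRNA 2 against COPB2: tAATTGAAcactctaatctgca
Each guide is 22 bases long and was fully complementary to COPB2, shRNA 1 at bases 1323 to 1344 and shRNA 2 at bases 333 to 354 of the 3275-base transcript COPB2-201, both inside its coding sequence (bases 98 to 2815). The site of shRNA 1 was found in 7 of 10 protein-coding COPB2 transcripts of the GENCODE annotation and that of shRNA 2 in 10 of 10. The targets do not overlap and the seeds differ. COPB2 lies at chr3:139357406-139389680 (GRCh38.p14).

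COPB2 was measured as CPM, the share of a library's counts scaled to a fixed total and adjusted between libraries by TMM factors. With 4OHT it stood at 79 to 113 CPM (median 91.9) under the COPB2 hairpins and at 303 to 573 CPM under the control shRNA, and with DMSO at 30.3 to 63.6 CPM (median 40.6) and 238 to 416 CPM. Every COPB2 hairpin library was below every control library. Of the control mean in the same treatment, 20.6% was left with shRNA 1 and 23.2% with shRNA 2 in 4OHT, against 13.1% and 14.8% in DMSO. COPB2 was therefore not at the same level in the groups compared: it was higher with 4OHT (log2 fold change 1.05 ± 0.21 SE, adjusted p = 5.91e-04), with no overlap between the 6 libraries of each treatment, while with the control shRNA the value was 0.40 (adjusted p = 0.327). The part that the unequal knockdown plays in the responses given here was not tested.

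Depth was 13148194 to 20312816 counts a library, and the limit a count of 0 allows, 3 counts, was 0.132 to 0.232 CPM, covering counting error only. In every COPB2 hairpin group the libraries numbered 3 stood apart. Among the COPB2 hairpin libraries, the first component held 77.2% of the variance left after group means. This does not cover the control libraries, whose same-numbered 4OHT and DMSO libraries gave r = -0.614 to 0.588. Libraries of shRNA 1 and shRNA 2 with the same treatment and number deviated together (r = 0.524 to 0.924 across genes), so the 6 libraries of a treatment are not 6 independent samples. Counts are therefore also given with these pairs summed, 3 against 3, and without the libraries numbered 3, the latter chosen after seeing the data. No label says that the libraries of a group came from separate cultures, and if they did not, p-values measure only the spread between these libraries. For its enrichment plots of COPB2 knockdown in senescent ER:RAS cells, the study's legend gives n = 3 for each hairpin and describes n as independent experiments. The summed level of 11 fibroblast markers was 13471 to 16096 CPM with 4OHT and 15775 to 23930.0 CPM with DMSO under COPB2 depletion. The defining epithelial genes CDH1, KRT5, KRT14 and GRHL2 and the T cell gene CD3E were at the floor in all 18 libraries, while the sum of 8 endothelial markers was 53.6 to 91.2 CPM with 4OHT and 26.3 to 29.9 CPM with DMSO and that of 10 leukocyte markers 70.6 to 85.9 CPM and 17.8 to 40.1 CPM. The sum of 10 epithelial markers was 59.6 to 129.8 CPM with 4OHT and 102 to 179.5 CPM with DMSO. The part of these marker sums in the responses was not tested. HRAS, whose counts can include the fusion, was at 2776 to 3976 CPM with 4OHT and 2484 to 3745 CPM with DMSO, overlapping (log2 fold change 0.04 ± 0.17, adjusted p = 0.866).

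With COPB2 depleted, 7411 of 14297 genes tested passed an adjusted p of 0.05 (51.8%; edgeR quasi-likelihood test, 6 against 6 libraries), 3108 of them higher with 4OHT (21.7%) and 4303 lower (30.1%). The 6 libraries of the treatments did not overlap for 5598 genes (39.2%), 5565 of which passed the test. With the libraries of both hairpins summed, 5098 genes passed, 2139 higher and 2959 lower, and without the libraries numbered 3 the count was 7762. The median over all genes tested was -0.10 on the log2 scale and -0.00192 with DESeq2 size factors, and changes are to be read against that shift. Of 385 genes called among the 546 tested members of the lists described here, 373 were still called with those size factors and 0 turned direction. Counts of list members that rose or fell under depletion are to be read beside the 21.7% and 30.1% of all genes.

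Taken alone, shRNA 1 gave 5272 called genes (36.9%) and shRNA 2 gave 5280 (36.9%). Of these, 4771 were called with both in the same direction, 90.5% of the first list and 90.4% of the second, 1968 higher and 2803 lower, and 0 were called in opposite directions. The responses to 4OHT under the hairpins correlated across genes with r = 0.972 (rho = 0.968), as a description, since genes are not independent replicates and the hairpin libraries share their replicate number. A direct test of the difference between the hairpins called 0 of 14297 genes (0%) by edgeR and 0 by DESeq2, and 59 genes had an unadjusted p under 0.05. That is fewer than the share of 0.05 that this threshold would pass if no gene differed. The edgeR test was thus conservative here, and 0 calls do not show that the hairpins gave equal responses.

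With the control shRNA the same comparison, 3 against 3, called 5098 genes (35.7%), 2210 higher (15.5%) and 2888 lower (20.2%). Of these genes, 4953 were also called under depletion. The direction was the same for 4951 of them, 2152 higher and 2799 lower, and opposite for 2. The 4951 made up 97.1% of the control calls and 66.8% of the calls under depletion. Across all genes tested the responses correlated with r = 0.960 (rho = 0.946). Fitted from its own 6 libraries alone, the control comparison called 2911 genes. The larger number of libraries under depletion by itself allows more calls, so where counts of the arms stand side by side in the lists they are not a comparison of the arms, and the counts of each hairpin alone, 3 against 3, match the control in number of libraries.

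**Figure D1:**
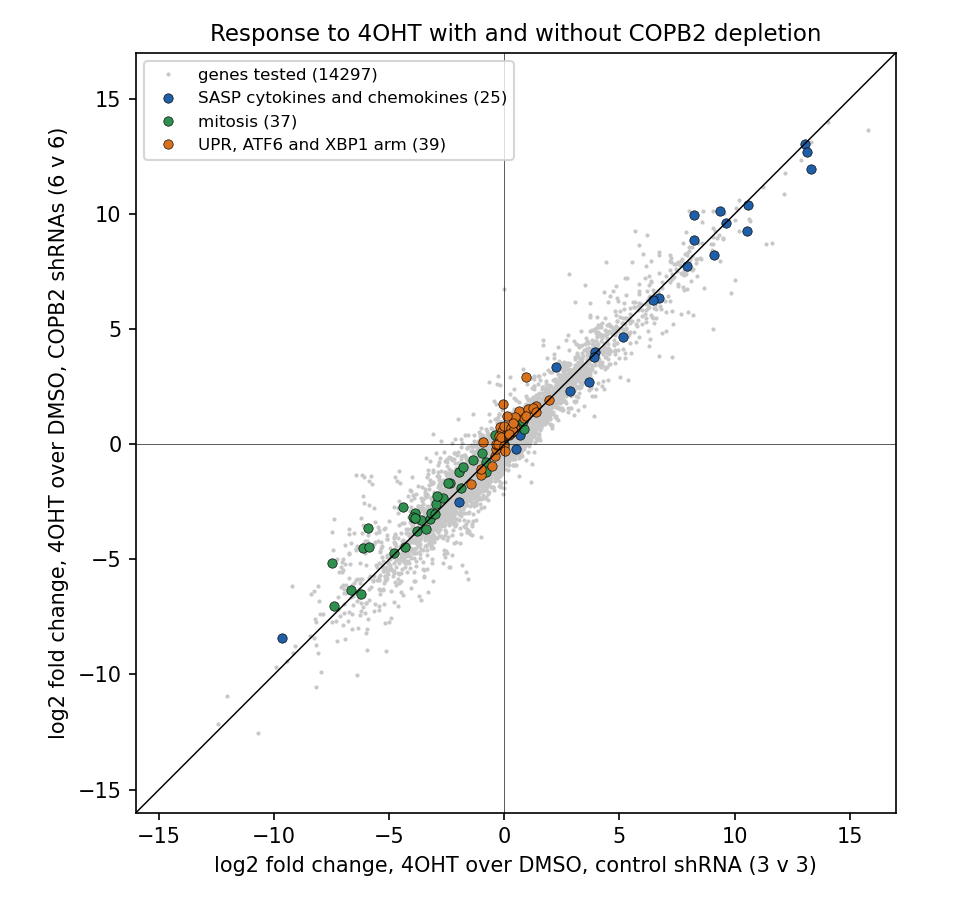
Log2 fold change of 4OHT over DMSO for 14297 genes with the control shRNA (horizontal axis, 3 against 3 libraries) and with the COPB2 shRNAs (vertical axis, 6 against 6), from the edgeR fit with its prior count. Coloured points are listed SASP cytokines and chemokines (25), mitosis genes (37) and ATF6-XBP1 genes (39), and the line marks equal responses. Cytokines and chemokines reach the top right and mitosis genes the bottom left, while many ATF6-XBP1 genes lie above the line near the centre.

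The 10 highest and the 10 lowest genes by fitted fold change are given next, among genes called with each hairpin, without overlap between treatments and averaging 100 counts or more in the higher treatment. The order rests in part on fitted changes against groups at 0 counts, which can only be bounded, so it is no ranking by measured size. IL1B, the inflammatory cytokine interleukin 1 beta, stood at 0.319 to 0.927 CPM (median 0.841) with DMSO and 4877 to 6579.6 CPM (median 5726) with 4OHT (log2 fold change 13.07 ± 0.29, adjusted p = 8.69e-14). MMP3, a stromelysin that cuts matrix proteins, stood at 0.111 to 1.08 CPM (median 0.327) and 1148 to 1518 CPM (median 1397) (11.77 ± 0.34, adjusted p = 2.34e-12). CSF2, the growth factor of granulocytes and macrophages, stood at 0 to 0.176 CPM (median 0.0652) and 200.2 to 321 CPM (median 292) (11.98 ± 0.46). In all 3 the lowest library with 4OHT was far above the highest with DMSO. CSF2 had 0 to 4 counts in the DMSO libraries, so its fitted change rests on few counts. It passed the filter on low counts through the libraries with 4OHT and had to come out higher. The other rises were SERPINA9 and SERPINB4, serine protease inhibitors of the serpin family, the elastase inhibitor PI3, the cornified envelope genes LCE1F and LCE3D, the granulocyte growth factor CSF3 and the protease matrilysin, MMP7. No DMSO library held more than 3 counts of any of them, so their rise is given as a lower bound on the log2 scale, against the highest floor of the low libraries: at least 10.10 for CSF3, 10.09 for PI3, 8.92 for SERPINA9, 8.03 for LCE1F, 7.28 for SERPINB4, 6.76 for MMP7 and 6.13 for LCE3D. SERPINA9 had 0 counts in all 6 DMSO libraries and 83.7 to 132 CPM (median 121) with 4OHT. The LCE and SERPINB families hold near-identical copies, so the share of reads given to each of their members is uncertain.

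The genes that fell had 0 or nearly 0 counts with 4OHT. ADH1B, an alcohol dehydrogenase, stood at 29.2 to 62.6 CPM (median 37.7) with DMSO and had 0 counts in all 6 libraries with 4OHT, a fall of at least 7.73 on the log2 scale. WNT2, a secreted WNT ligand, stood at 31.5 to 35.6 CPM (median 34) with DMSO (a fall of at least 7.44). PODN, a small leucine-rich proteoglycan, stood at 72.8 to 132 CPM (median 108) and 0.0539 to 0.204 CPM (median 0.118) (-9.68 ± 0.40). With at most 4 counts in a library with 4OHT, it passed the filter on low counts through the DMSO libraries. It had to come out lower. In these 3 genes the lowest DMSO library was far above every library with 4OHT. The others were the prostacyclin synthase PTGIS, the flavin monooxygenase FMO2, the fatty acid elongase ELOVL2, the transcription factor TOX, the fibrinogen-like FGL2, the selenium carrier SELENOP and the collagen COL14A1, whose log2 fold change was -9.08 ± 0.30. Where no library with 4OHT held more than 3 counts, the falls were at least 7.61 for PTGIS, 7.34 for FMO2, 6.52 for ELOVL2, 6.15 for TOX, 5.69 for FGL2 and 5.12 for SELENOP.

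Regulators of the growth arrest moved in both directions with 4OHT under COPB2 depletion. CDKN1A (p21), which blocks cyclin-dependent kinases, at chr6:36676463-36687332, where the noncoding DINOL overlaps it, stood at 528 to 1112 CPM (median 748) with DMSO and 2472 to 4360.5 CPM (median 4058) with 4OHT. The treatments did not overlap, the lowest libraries with 4OHT being those numbered 3. CDKN1A rose with a log2 fold change of 2.21 ± 0.25 (adjusted p = 1.99e-06; 2.27 without the libraries numbered 3), and with the control shRNA by 2.47, the ratio of same-numbered libraries being 3.67 to 6.27 under depletion and 4.19 to 8.34 with the control. CDKN2B (p15) stood at 8.39 to 27.7 CPM (median 10.9) and 134 to 222 CPM (median 171) (3.52 ± 0.38, adjusted p = 1.35e-06), also without overlap. CDKN2A, which encodes p16 and ARF, stood at 64.1 to 134 CPM (median 102) and 113 to 309 CPM (median 226) and overlapped between treatments, though it passed the test (1.13 ± 0.32, adjusted p = 0.00786). Of the other CDK inhibitors, CDKN2D rose (1.15), and CDKN1B (-1.51), CDKN1C (-2.75) and CDKN2C (-1.67) fell. Among all 18 tested regulators of arrest, 6 rose and 7 fell, beside 21.7% and 30.1% of all genes, with a median log2 fold change of 0.09 against 0.19 with the control shRNA. LMNB1, the nuclear lamin whose loss is a hallmark of senescence, stood at 6.11 to 13.6 CPM (median 10.4) and 2.00 to 3.56 CPM (median 2.44) (-1.90 ± 0.25, adjusted p = 1.24e-05), and HMGA1 (2.05) and HMGA2 (1.74), chromatin proteins of senescence foci, rose. Of the 13 tested genes of the nuclear lamina and HMG list, 3 rose and 5 fell (median -0.34, control -0.40), beside 21.7% and 30.1% of all genes. LMNA, LMNB2 and HMGB1 did not pass the test.

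Genes of DNA replication and mitosis fell together. Of 38 replication genes tested, 26 fell and 4 rose under depletion, with a median of -0.96, and 27 fell and 2 rose with the control shRNA, with a median of -1.19. Of 37 mitosis genes tested, 30 fell and 2 rose, with a median of -2.99 (-2.71 with genes at the floor put at their bound), against 27 and 2 with the control shRNA and a median of -3.17 (-3.03). The falls include 2 replication and 5 mitosis genes with no more than 3 counts in any library with 4OHT. Those passed the filter on low counts through the DMSO libraries and had to come out lower. Genes with a few more counts passed in the same way, among them POLE2 and DLGAP5, with at most 4 in a library with 4OHT. The proliferation marker MKI67 fell by at least 4.81, MYBL2, a cell cycle transcription factor, by at least 5.48, and cyclin A2, CCNA2, by 2.99. The mitotic kinesins KIF2C (-3.64 ± 0.24) and KIF20A (-4.51 ± 0.24) and the survivin gene BIRC5 (-4.47 ± 0.28, control -5.89) fell in each arm. With the control shRNA both kinesins were at the floor with 4OHT, a fall of at least 5.16 for KIF2C and 5.58 for KIF20A. The differences between arms did not pass the test by edgeR (adjusted p = 0.199, 0.824 and 1.000). CCNE1 (2.09) and E2F1 (1.12), which act at the entry into S phase, AURKA (0.86), a mitotic kinase, and CDC25A (0.65), a phosphatase that activates CDKs, rose. CDC6, which loads the replicative helicase, stood at 3.45 to 6.66 CPM (median 4.15) with DMSO and 3.78 to 8.35 CPM (median 4.82) with 4OHT under depletion. These ranges overlap in large part (0.22 ± 0.30, adjusted p = 0.563), whereas with the control shRNA CDC6 fell (-2.16 ± 0.45, adjusted p = 0.00150). The difference of 2.39 ± 0.54 between the arms had an adjusted p of 0.408 by edgeR and 0.00364 by DESeq2.

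Most genes of the SASP rose at the RNA level. Of 13 cytokine genes tested, 10 rose and 1 fell, of 12 chemokine genes 9 and 1, and of 19 genes of proteases and their inhibitors 15 and 3, and the counts with the control shRNA were the same in each of these lists. The rises include 2 cytokine genes, 1 chemokine gene and 2 protease genes with no more than 3 counts in any DMSO library. Those passed the filter on low counts through the libraries with 4OHT and had to come out higher. Genes with a few more counts passed in the same way, among them CSF2 and CCL26, with at most 4 in a DMSO library. The list medians were 7.77 for cytokines (4.87 with genes at the floor at their bound), 5.47 for chemokines and 2.85 for proteases, beside -0.10 over all genes, and 7.93 (6.18), 5.80 and 3.12 with the control shRNA. CXCL8, the neutrophil chemokine interleukin 8, at chr4:73740569-73743716, stood at 2.06 to 11.9 CPM (median 5.89) with DMSO and 4532 to 6171 CPM (median 4759.9) with 4OHT. Every library with 4OHT was far above every DMSO library (log2 fold change 9.62 ± 0.68, adjusted p = 1.42e-08), and the control response was 9.61. IL1A, which acts upstream of much of the secretome, stood at 0 to 0.832 CPM (median 0.197) and 146 to 289 CPM (median 171) (9.25 ± 0.67, adjusted p = 1.87e-08). IL6, a cytokine of the acute phase, stood at 5.00 to 9.76 CPM (median 6.01) and 57.8 to 164 CPM (median 118) (3.99 ± 0.34, adjusted p = 1.00e-07). Neither overlapped between treatments. The neutrophil chemokines CXCL1 (6.34), CXCL3 (8.21) and CXCL5 (10.39) and the cytokines IL11 (7.77) and LIF (3.77) rose as well. CXCL12, a chemokine that fibroblasts secrete at rest, fell from 36.8 to 65.7 CPM (median 55.5) to 0 to 0.260 CPM (median 0.162) (-8.41 ± 0.46). With at most 4 counts in a library with 4OHT, CXCL12 passed the filter through the DMSO libraries and had to come out lower. CSF1, the macrophage growth factor, fell too (-2.52 ± 0.18). CCL2, the monocyte chemokine, did not pass the test (-0.18 ± 0.44, adjusted p = 0.754).

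Among the proteases, MMP1, the interstitial collagenase, stood at 33.9 to 63.5 CPM (median 45.1) with DMSO and 7913 to 13323 CPM (median 9791) with 4OHT (7.80 ± 0.27, adjusted p = 7.67e-12), without overlap. The inhibitor TIMP1 rose (2.85), while TIMP2 (-1.02), TIMP3 (-2.02) and the gelatinase MMP2 (-1.35) fell. Of 27 growth factors and their binding proteins, 15 rose and 8 fell, with a median of 1.25 against 1.72 with the control shRNA. The falls include 1 gene with no more than 3 counts in any library with 4OHT, which had to come out lower. The EGF receptor ligand AREG (9.01), the activin subunit INHBA (6.09) and the glycoprotein hormone STC1 (6.44) rose, and TGFB3 (-3.50) fell.

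The regulators upstream of the secretome rose in part. Of 22 NF-kB and C/EBP regulators, 14 rose and 3 fell (median 0.98, control 1.16), and among them the RNase gene ZC3H12A (3.90) and the deubiquitinase TNFAIP3 (1.43) are NF-kB targets that restrain inflammation. The NF-kB subunit RELA had a log2 fold change of 0.19 (adjusted p = 0.503). Of 20 genes of the feedback on the ERK pathway, through which RAS signals, 16 rose and 1 fell (median 1.83, control 1.82). The ERK phosphatases DUSP4 (4.11) and DUSP6 (3.40) and the inhibitor SPRY2 (3.16) rose, and SPRY1 (-3.35) was the gene that fell.

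The CXCL8 promoter is shown because it holds a short motif found for 7 of the 9 chemokine genes that rose. The 250 bases before the start of CXCL8 (chr4:73740319-73740568, plus strand, GRCh38.p14, RefSeq) hold an AP-1 motif (TGANTCA) and a kappaB motif (GGNNTTTCC), the binding letters of the factors AP-1 and NF-kB, in capitals.
CXCL8 promoter: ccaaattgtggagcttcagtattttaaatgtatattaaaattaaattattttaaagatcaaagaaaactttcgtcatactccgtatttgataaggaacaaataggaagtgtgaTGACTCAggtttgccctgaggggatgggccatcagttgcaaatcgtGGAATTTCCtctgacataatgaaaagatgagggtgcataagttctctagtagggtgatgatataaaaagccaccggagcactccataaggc
Searched on both strands in windows of 300 bases, 250 before and 50 after the start, the kappaB letters were found for 7 of 12 chemokine genes with a promoter in the table (58.3%), CCL20, CXCL1, CXCL2, CXCL3, CXCL5, CXCL6 and CXCL8, for 7.61% of all 27305 genes with a promoter and for 9.13% of those tested. CCL7 (2.30) and CCL26 (3.37) rose without it. All 7 rose with 4OHT under COPB2 depletion and with the control shRNA, beside 9 of the 12 chemokine genes tested. Of 10 cytokine genes with a promoter in the table, IL6, IL32 and TSLP held the kappaB letters (30%). Of these 3, only IL6 rose. The AP-1 letters, whose pattern reads the same on both strands and was counted once per place, occurred for 9.37% of all genes and for 2 of the 12 chemokine genes. A match is a run of letters and was not tested for binding.

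Some genes of the unfolded protein response rose with 4OHT in the depleted cells, 19 of 39 in the list of its ATF6-XBP1 arm and 13 of 32 in that of its PERK-ATF4 arm, beside 21.7% of all genes. HSPA5 (BiP), the major ER chaperone, which also binds the stress sensors, at chr9:125234853-125241343, stood at 715 to 1177 CPM (median 907) with DMSO and 2145 to 4829 CPM (median 2654) with 4OHT under depletion. The lowest library with 4OHT was above the highest DMSO library, and the highest 2 were those numbered 3. With the control shRNA the ranges were 785 to 1106 and 495 to 1116 CPM, overlapping. HSPA5 thus rose under depletion (1.76 ± 0.25, adjusted p = 2.49e-05; 1.56 without the libraries numbered 3) and did not pass the test with the control (-0.08 ± 0.34, adjusted p = 0.893), and same-numbered libraries differed 2.63 to 4.16 times under depletion and 0.631 to 1.16 times with the control. The difference between the arms, 1.83 ± 0.42, had an adjusted p of 0.448 by edgeR and 0.0160 by DESeq2.

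DDIT3 (CHOP), a transcription factor of the PERK arm that promotes apoptosis, at chr12:57516588-57520517, where it overlaps MARS1 and MIR616 so that shared reads may be split, stood at 26.9 to 50.7 CPM (median 39.3) with DMSO and 90.5 to 216 CPM (median 110.2) with 4OHT. All 6 libraries with 4OHT were above all 6 with DMSO (1.86 ± 0.26, adjusted p = 1.78e-05; 1.59 without the libraries numbered 3). With the control shRNA it was at 24 to 44.3 CPM with DMSO and 22.2 to 25.1 CPM with 4OHT (-0.46 ± 0.35, adjusted p = 0.345), and the difference of 2.32 ± 0.44 had an adjusted p of 0.122 by edgeR and 0.000288 by DESeq2. ATF3, a stress factor downstream of ATF4, stood at 16.1 to 18.5 CPM (median 16.6) and 39.9 to 60.8 CPM (median 48.1) (1.5 ± 0.16, adjusted p = 1.24e-06; control -0.08), without overlap. INHBE, an activin subunit gene and target of ER stress, stood at 2.83 to 8.42 CPM (median 5.64) and 19.8 to 47.7 CPM (median 29.1) (2.60 ± 0.33, adjusted p = 7.76e-06; control -0.34), also without overlap. The differences from the control for ATF3 (1.58 ± 0.27) and INHBE (2.94 ± 0.59) had adjusted p-values of 0.103 and 0.183 by edgeR and 0.000537 and 0.000783 by DESeq2.

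**Figure D2:**
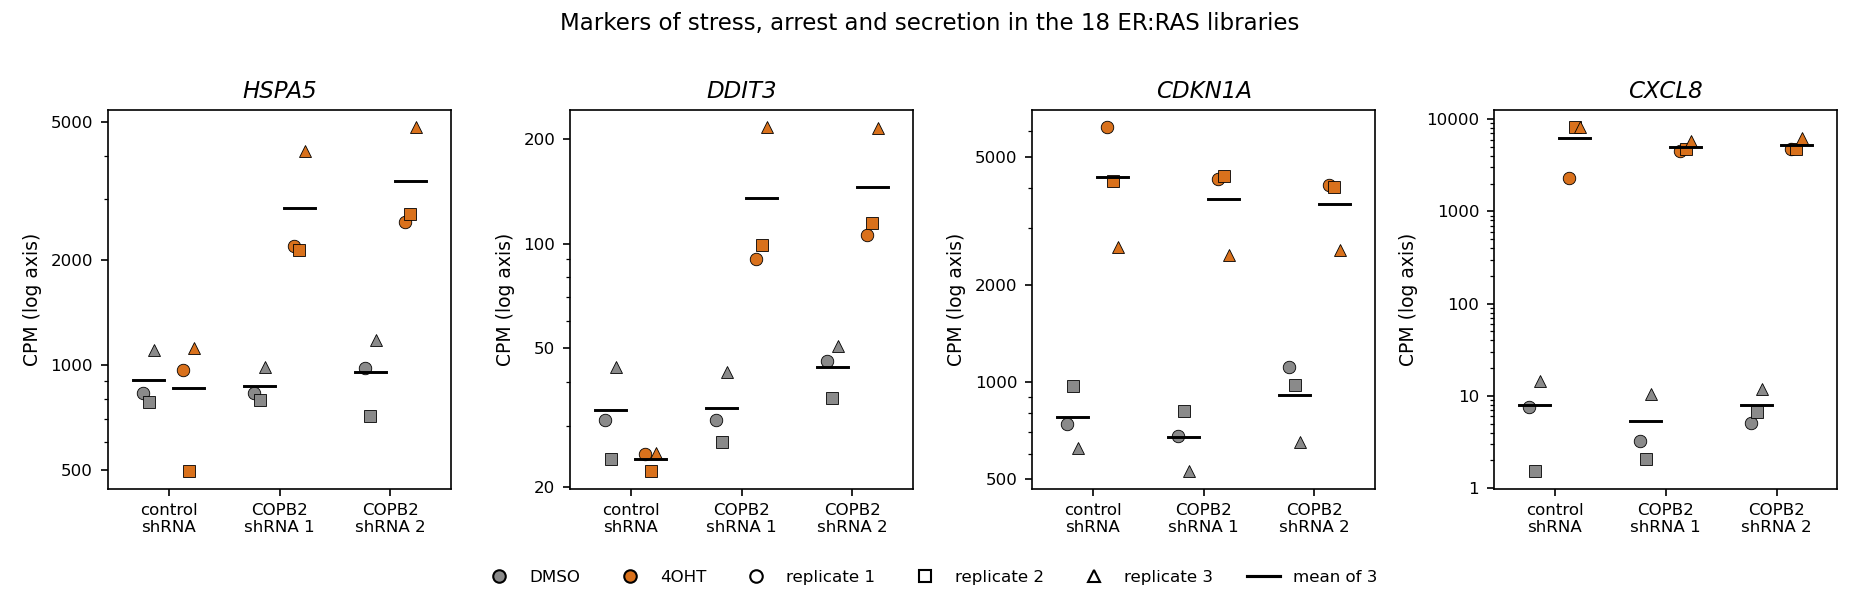
CPM (log axis) of HSPA5, DDIT3, CDKN1A and CXCL8 in each of the 18 ER:RAS libraries by shRNA, DMSO in grey and 4OHT in orange, with the replicate number as the symbol and the mean of 3 as a bar. CDKN1A and CXCL8 are higher with 4OHT under all 3 shRNAs, whereas HSPA5 and DDIT3 are higher with 4OHT under the COPB2 shRNAs and overlap between treatments under the control shRNA.

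Of 32 tested genes of the PERK-ATF4 list, 13 rose and 6 fell under depletion. At 3 against 3 libraries, 11 rose and 2 fell with each hairpin alone, and 7 rose and 4 fell with the control shRNA. Over all 14297 genes, 2196 rose and 3076 fell with shRNA 1, 2132 and 3148 with shRNA 2, and 2210 and 2888 with the control shRNA. The medians were 0.45 with both hairpins and -0.03 with the control. The list is mixed. TRIB3 (2.41, control 2.66), a pseudokinase, CHAC1 (2.13, control 2.05), which degrades glutathione, and CTH (2.85, control 2.59), an enzyme of cysteine synthesis, rose in each arm, and NUPR1, a stress-induced chromatin factor, fell in each (-4.03 ± 0.45, control -4.78). ATF4 itself had a log2 fold change of 0.17 ± 0.16 under depletion (adjusted p = 0.387) and fell with the control (-0.69 ± 0.22, adjusted p = 0.0263). With the libraries of both hairpins summed, 11 genes of the list rose and 2 fell, and without the libraries numbered 3, 16 and 4. Over all genes, 2139 of 14508 rose with the libraries summed and 3633 of 14182 without those numbered 3.

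Of 39 tested genes of the ATF6-XBP1 list, 19 rose and 5 fell under depletion. At 3 against 3 libraries, 13 rose and 3 fell with each hairpin alone, and 3 rose and 3 fell with the control shRNA. The medians were 0.58 and 0.04, and the difference between the arms was above 0 for 32 of the 39, beside 6113 of all 14297 genes tested, with 0 of the 39 differences past the adjusted threshold by edgeR and HSPA5 and HERPUD1 past it by DESeq2. With the hairpin libraries summed, 13 genes rose and 3 fell, and without the libraries numbered 3, 21 and 5. The counts over all genes given for the PERK-ATF4 list apply to these comparisons too.

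**Figure D3:**
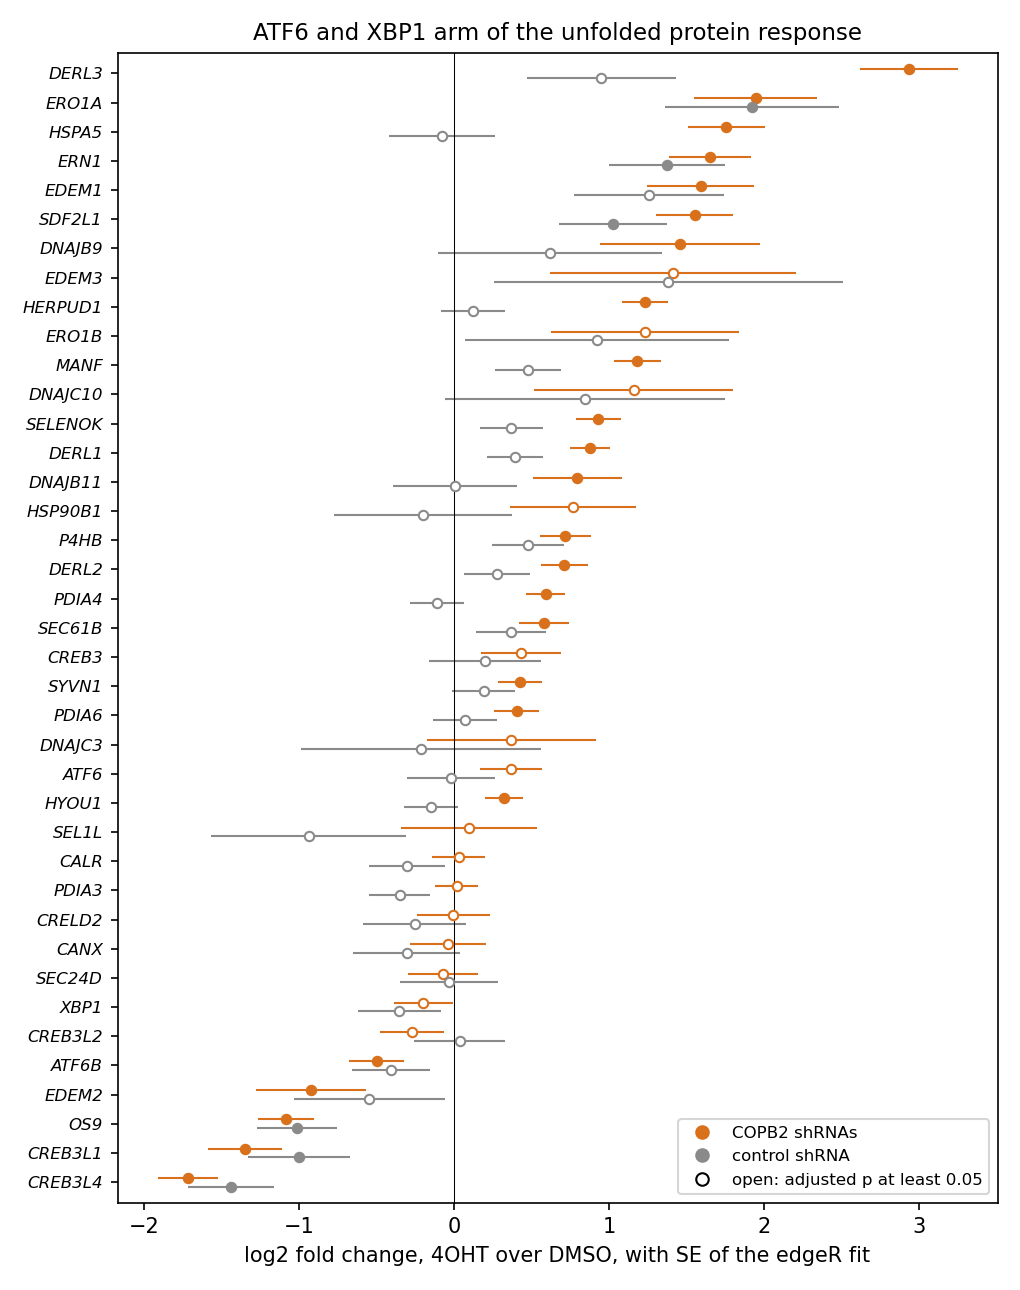
Log2 fold change of 4OHT over DMSO with its SE for 39 genes of the ATF6-XBP1 list, under the COPB2 shRNAs (orange) and the control shRNA (grey), with open circles where the adjusted p is at least 0.05. For HSPA5, DERL3, HERPUD1 and MANF the orange point is filled and the grey one open, whereas ERO1A, ERN1 and SDF2L1 are filled in both.

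Genes of ER-associated degradation were among those that rose. HERPUD1, a membrane protein of that pathway, stood at 121 to 168 CPM (median 135) and 270.2 to 439.6 CPM (median 312), without overlap (1.23 ± 0.15, adjusted p = 4.71e-06; control 0.12; difference 1.11 ± 0.26, adjusted p = 0.448 by edgeR and 0.0449 by DESeq2). DERL3, of the derlin family that draws proteins out of the ER, stood at 0.220 to 0.555 CPM (median 0.360) and 1.68 to 3.64 CPM (median 2.92) (2.93 ± 0.31, adjusted p = 1.29e-06; control 0.95), without overlap. DERL1 (0.88), DERL2 (0.71) and the ubiquitin ligase SYVN1 (0.42) rose as well. MANF, a secreted factor of ER stress, stood at 77.1 to 105 CPM (median 80.8) and 169 to 214 CPM (median 202) (1.18 ± 0.15, adjusted p = 9.04e-06). SDF2L1, a cofactor of HSPA5, stood at 23 to 39.8 CPM (median 31) and 71.8 to 129.9 CPM (median 88) (1.55 ± 0.25, adjusted p = 8.22e-05). Neither overlapped between treatments. The disulfide isomerase PDIA4 (0.59) and the chaperone HYOU1 (0.32, whose treatments overlapped) also rose. SDF2L1 rose with the control shRNA as well (1.02), as did the oxidase ERO1A (1.95, control 1.92) and ERN1, which encodes the sensor IRE1 (1.65, control 1.37). Several major chaperones did not pass the test, among them HSP90B1 (0.77), the lectins CALR (0.03) and CANX (-0.04), the disulfide isomerase PDIA3 (0.02) and the cochaperone DNAJC3 (0.37), nor did XBP1 (-0.20) or ATF6 (0.37). The lectin OS9 (-1.08), EDEM2 (-0.92), both of ER-associated degradation, and the transcription factor genes CREB3L1 (-1.35), CREB3L4 (-1.72) and ATF6B (-0.50) fell. Counts per gene symbol cannot show splicing of XBP1, through which IRE1 acts.

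Promoters are shown for HSPA5, HERPUD1 and SDF2L1 because genes of this list share ER stress response elements, which ATF6 and XBP1 are known to bind. Each run is the 250 bases before the RefSeq start (GRCh38.p14), on the strand of the gene, with the element in capitals: ERSE (CCAAT and CCACG with 9 bases between them) in HSPA5 (chr9:125241344-125241593, minus strand) and ERSE-II (ATTGG and CCACG with 1 base between them) in HERPUD1 (chr16:56931892-56932141, plus strand) and, on the opposite strand, in SDF2L1 (chr22:21642052-21642301, plus strand).
HSPA5 promoter: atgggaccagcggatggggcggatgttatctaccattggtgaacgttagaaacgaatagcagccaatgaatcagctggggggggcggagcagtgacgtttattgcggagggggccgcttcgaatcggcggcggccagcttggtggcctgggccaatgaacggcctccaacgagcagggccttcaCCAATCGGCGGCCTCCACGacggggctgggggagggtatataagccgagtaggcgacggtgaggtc
HERPUD1 promoter: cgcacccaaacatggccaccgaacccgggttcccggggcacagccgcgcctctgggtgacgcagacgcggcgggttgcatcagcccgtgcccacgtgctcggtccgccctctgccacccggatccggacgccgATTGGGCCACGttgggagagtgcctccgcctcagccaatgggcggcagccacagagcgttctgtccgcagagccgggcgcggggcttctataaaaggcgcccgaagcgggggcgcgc
SDF2L1 promoter: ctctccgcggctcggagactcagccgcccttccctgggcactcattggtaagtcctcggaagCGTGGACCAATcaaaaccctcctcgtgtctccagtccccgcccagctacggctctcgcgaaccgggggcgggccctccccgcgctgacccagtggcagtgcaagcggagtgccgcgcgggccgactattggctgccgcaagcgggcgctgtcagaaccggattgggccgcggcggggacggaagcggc
On both strands of windows of 300 bases, ERSE was found in 27 of 35116 promoters (0.0769%), for 0.0916% of genes, and for 8 of the 36 genes of the list with a promoter in the table (22.2%), CALR, CANX, CRELD2, ERO1B, HSP90B1, HSPA5, PDIA6 and XBP1. Of these 8 genes, HSPA5 and PDIA6 rose under depletion, a share near the 21.7% of all genes, and 0 fell. ERSE-II was found in 19 promoters (0.0541%), for 0.0696% of genes, and for 3 of the 36 genes of the list (8.33%), HERPUD1, HYOU1 and SDF2L1, all of which rose under depletion. The letters TGATGNAA, the composite element of ATF4 and C/EBP factors, were found for 4.46% of genes and for 10 of 28 genes of the PERK-ATF4 list (35.7%), 9 of which were tested. ASNS, ATF3, CHAC1 and GARS1 of these rose and JDP2 fell. A match is a description of letters, not of binding.

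Most genes of the coat and its transport machinery did not pass the test. Of 9 coatomer genes tested, 2 rose, COPB2 and COPE (0.74 ± 0.27, adjusted p = 0.0340), and 2 fell, COPG2 (-1.20) and COPZ2 (-1.37), with a median of 0.18 against 0.12 with the control shRNA. Of 32 genes of COPI transport and the Golgi, 9 rose and 0 fell (median 0.27, control 0.30, where 4 rose), 28.1% called beside 51.8% of all genes. ARF4, a small GTPase that helps to recruit coatomer, stood at 365 to 527 CPM (median 428) with DMSO and 808 to 1102 CPM (median 859) with 4OHT. The treatments did not overlap (1.04 ± 0.11, adjusted p = 1.37e-06). In the control the value was 0.28, and the difference of 0.77 ± 0.19 had an adjusted p of 0.600 by edgeR and 0.000288 by DESeq2. KDELR3, a receptor that returns escaped ER proteins, rose under depletion (1.30) and also passed the test as higher with the control shRNA.

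Genes of apoptosis moved in both directions. Of 25 tested genes of the BCL2 family, death receptors and caspases, 10 rose and 6 fell under depletion (median 0.43), beside 21.7% and 30.1% of all genes. With the control shRNA 7 rose and 3 fell (median 0.40). BCL2A1, a pro-survival member, stood at 0.0556 to 0.616 CPM (median 0.379) with DMSO and 25.5 to 41.7 CPM (median 28) with 4OHT (6.40 ± 0.45, adjusted p = 1.40e-08), without overlap. Pro-survival MCL1 (2.22), the decoy death receptor TNFRSF10D (3.44) and pro-apoptotic PMAIP1, which encodes NOXA (1.64, adjusted p = 0.0259), rose. Pro-apoptotic BCL2L11, which encodes BIM (-2.78), and pro-survival BCL2 (-2.47) fell, and BCL2L1, which encodes BCL-xL, did not pass the test (0.16 ± 0.24, adjusted p = 0.607).

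The fibroblast programme was lower with 4OHT under depletion. Of 35 genes of collagens and matrix, 27 fell and 2 rose (median -2.02, control -1.88). The fibrillar collagens COL1A1 (-1.40), COL1A2 (-2.88) and COL3A1 (-5.15) and the proteoglycan DCN (-7.67) fell, and COL6A2 (0.78) and the matrix glycoprotein TNC (0.72) rose. Of 12 contractile genes, 8 fell and 0 rose (median -1.99, control -1.98), among them smooth muscle actin, ACTA2 (-1.45), and the actin-binding TAGLN (-3.31) and CNN1 (-3.38). Of 15 genes of lung mesenchyme identity, 11 fell and 2 rose (median -1.88, control -1.52), with the transcription factors TBX4 (-4.89) and TCF21 (-2.68) and the receptor PDGFRA (-1.88) among those that fell. The falls include 4 matrix, 1 contractile and 2 lung mesenchyme genes with no more than 3 counts in any library with 4OHT, which had to come out lower. The same holds for the matrix gene PODN, with at most 4 counts. Vimentin, VIM, the intermediate filament of mesenchymal cells, rose (0.99).

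Genes of the sterol list rose with 4OHT. Of 22 tested, 19 rose and 0 fell under depletion (median 2.40) and 18 rose and 0 fell with the control shRNA (median 2.25). INSIG1, which restrains sterol regulatory proteins, rose (4.03 ± 0.36, adjusted p = 2.10e-07). With the hairpin libraries summed, 18 rose and 0 fell. Of 32 lysosome and autophagy genes, 8 rose and 7 fell (median 0.05), shares near the 21.7% and 30.1% of all genes. NPC1, which exports cholesterol from lysosomes (2.26), rose, and the protease CTSK (-1.84) and the membrane protein LAMP1 (-0.91) fell. ATP6V0D2, a subunit of the proton pump, stood at 0 to 0.185 CPM (median 0.0826) with DMSO and 12.7 to 36.6 CPM (median 17.9) with 4OHT (7.94 ± 0.46). It had at most 4 counts in every DMSO library. It therefore passed the filter on low counts through the libraries with 4OHT and had to come out higher. With the control shRNA it was higher with 4OHT too, by at least 3.97. The difference had an adjusted p of 0.491. Of 26 genes of the interferon response, 17 fell and 3 rose (median -1.74, control -1.54), IFIT1, an RNA-binding antiviral protein, falling (-6.88) and the chemokine CXCL10 rising (5.41). For 3 of the 26, no library of 1 treatment held more than 3 counts, so the filter on low counts fixed their direction. The filter did so too for IFIT1, with at most 5 counts in a library with 4OHT, and OAS1, with at most 4. Of 28 listed genes of the epidermal barrier and antimicrobial defence, 15 passed the filter on low counts. For 9 of these no DMSO library held more than 3 counts, so they passed through the libraries with 4OHT and had to come out higher, and the list is not counted. Among members with counts in each treatment, the keratin-associated KRTAP2-3 (2.48) and KRTAP1-5 (1.05) rose, and TGM1, which cross-links the cornified envelope, fell (-1.11).

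**Figure D4:**
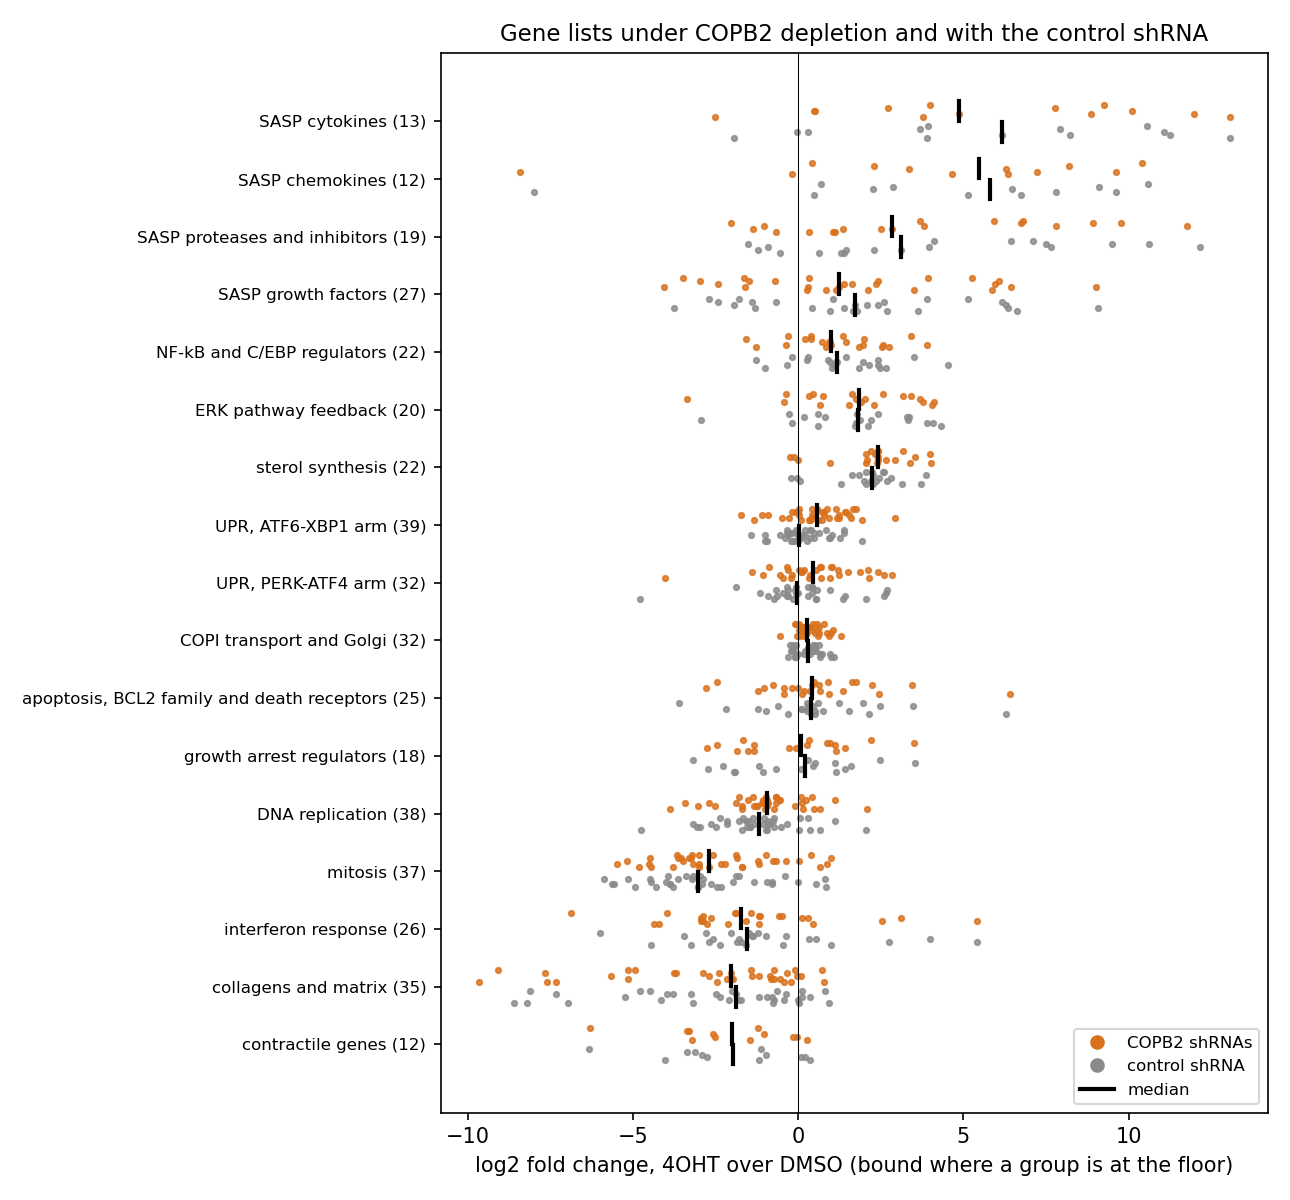
Log2 fold change of 4OHT over DMSO for the tested genes of 17 lists (number of genes in brackets) under the COPB2 shRNAs (orange) and the control shRNA (grey), with the median of each as a black bar, and with genes whose lower group is at the floor drawn at their bound. In the ATF6-XBP1 and PERK-ATF4 lists the orange median, 0.58 and 0.45, is right of the grey one, 0.04 and -0.03.

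The difference between the arms, tested over the whole table, addressed which genes answer 4OHT differently once COPB2 is depleted. By edgeR 2 of 14297 genes passed (0.014%), TCF19 and METTL7A, with 295 at an unadjusted p under 0.05. That is fewer than the share of 0.05 that this threshold would pass if no gene differed, so the edgeR test was conservative here too. By DESeq2 17 passed, 16 with the higher response under depletion and 1, METTL7A, with the lower. TCF19, a chromatin-associated protein that is raised as cells enter S phase, at chr6:31158589-31164215, stood at 8.13 to 12.7 CPM (median 9.18) with DMSO and 4.94 to 10.2 CPM (median 6.59) with 4OHT under depletion. These ranges overlap (-0.39 ± 0.20, adjusted p = 0.118). With the control shRNA it stood at 9.76 to 11.6 CPM and 1.03 to 1.58 CPM, without overlap (-2.99 ± 0.31, adjusted p = 2.74e-06). The difference between the arms was 2.60 ± 0.36 (adjusted p = 0.0343), and same-numbered libraries had a ratio of 0.528 to 1.13 under depletion and 0.0888 to 0.148 with the control. METTL7A, a methyltransferase-like protein of lipid droplets and ER, listed as TMT1A in the reference, at chr12:50925015-50932508, where HIGD1C overlaps it, stood at 13.7 to 19 CPM (median 16.4) and 0.274 to 0.509 CPM (median 0.351) under depletion and at 12.1 to 15.3 CPM and 1.20 to 1.58 CPM with the control. With 4OHT under depletion this was 5 to 10 counts a library. It fell in each arm, by 5.43 under depletion and by 3.34 with the control, on the log2 scale, and the difference was -2.09 ± 0.30 (adjusted p = 0.0343). Neither difference passed without the libraries numbered 3 (TCF19 2.37 and METTL7A -2.21, each with an adjusted p of 0.288) or with the hairpin libraries summed (adjusted p = 0.310 for each), and leaving out 1 of the 18 libraries at a time gave 0 or 1 called genes, except 3 without replicate 1 of shRNA 1 in 4OHT and 2 without replicate 3 of shRNA 2 in either treatment.

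**Figure D5:**
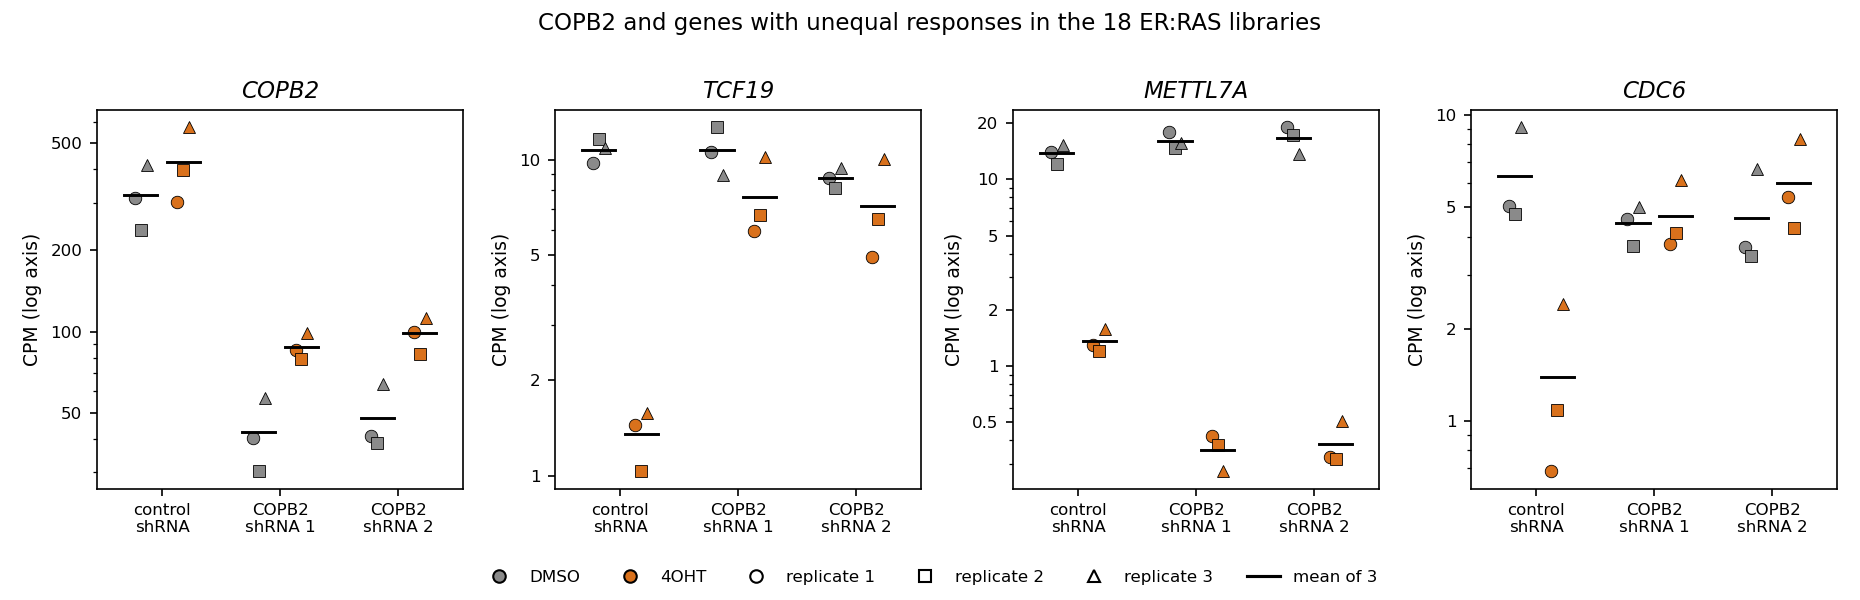
CPM (log axis) of COPB2, TCF19, METTL7A and CDC6 in each of the 18 ER:RAS libraries by shRNA, DMSO in grey and 4OHT in orange, with the replicate number as the symbol and the mean of 3 as a bar. TCF19 with 4OHT is at 1.03 to 1.58 CPM under the control shRNA and at 4.94 to 10.2 CPM under the COPB2 shRNAs, and METTL7A with 4OHT is lower under the COPB2 shRNAs.

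The 17 genes called by DESeq2 included genes of the stress response. DDIT3, ATF3, INHBE, HSPA5 and HERPUD1 of the unfolded protein response lists and ARF4 of the Golgi list were among them, besides TES, which encodes a focal adhesion protein, BEX2, CDC6, the sulfurase gene MOCOS, the pyruvate carrier gene MPC1, the potassium channel gene KCNK6, LDHD, LINC00346 and C17orf107, which are named after their values were seen. Since 16 of the 17 called genes had the higher response under depletion, a shared direction among genes picked from them is no support. The unfolded protein response genes and ARF4 had differences by DESeq2 of 2.28 for DDIT3, 2.92 for INHBE, 1.55 for ATF3, 1.80 for HSPA5, 1.08 for HERPUD1 and 0.74 for ARF4. By edgeR their adjusted p-values lay between 0.103 and 0.600 without a replicate block. The replicate number pairs the COPB2 hairpin libraries but, of the control libraries, only those numbered 3. With it as a block, edgeR called DDIT3 (adjusted p = 0.00466), HSPA5 (0.00585), ATF3 (0.0388) and CDC6 (0.00501) of the genes described here. Both the test and the block thus change whether these differences are called.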

How the data were processed

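Poly(A) RNA was sequenced from 42 libraries, and the authors deposited raw read counts per gene symbol (28266 symbols, 7054 without a count in the 18 ER:RAS libraries). The submitters' processing notes name DRAGEN, STAR 2.7.8a, DESeq2 1.32.0 and hg38, whereas the study's methods name Tophat, HTSeq and hg19; which made the table could not be settled, so annotation and multi-mapping rules behind the counts are uncertain. The methods give a directional, single-end kit, and the strand setting of the counting was not given in the sources used here. Positions are from RefSeq on GRCh38.p14 and hairpin sites from GENCODE transcripts; 14142 of 14297 tested symbols matched RefSeq, older symbols included.

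The 18 ER:RAS libraries were fitted together (6 group means) with edgeR 4.0.16 in R 4.3.3 (TMM factors, filterByExpr, robust quasi-likelihood F-test, two-sided, Benjamini-Hochberg over all genes tested, called at an adjusted p under 0.05). Deviations from group means were taken on log2 CPM with a prior count of 2. The response under depletion is the mean of the 4OHT minus DMSO differences of both hairpins. Where no library of a group held more than 3 counts, the change was computed from mean CPM against the highest floor. Named genes were the 10 highest and 10 lowest among genes called with both hairpins together and each alone, whose treatments did not overlap and whose higher treatment averaged 100 counts or more, every gene called for a difference between arms, and members of the gene lists. Members and lists were chosen with earlier results of these data known. The replicate number pairs the 4OHT and DMSO libraries of the COPB2 hairpins (correlations of deviations from group means 0.471 to 0.798). Scripts were tested on simulated data. Alternatives were DESeq2 1.42.0, its size factors, no filter, a fit of the compared libraries alone, a replicate block, a log2 limit of 1, summed hairpin libraries and leaving out libraries.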

Additional observations from a re-analysis of the deposited data

Results flagged for a closer look

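Both genes with a tested difference between the arms are listed here because the interaction term passed the threshold in the edgeR fit. TCF19 responded to 4OHT with -0.39 under COPB2 depletion and -2.99 with the control shRNA, a difference of 2.60 on the log2 scale (adjusted p = 0.0343). METTL7A responded with -5.43 and -3.34, a difference of -2.09 (adjusted p = 0.0343). Without the libraries numbered 3 the differences were 2.37 and -2.21 (adjusted p = 0.288 for each). The part of the lower COPB2 level in DMSO in these differences was not tested.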

How the results depend on the processing

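The response under COPB2 depletion, called for 7411 genes, stayed within 1.5 times that number with DESeq2 size factors (7276), no filter on low counts (7856), the DESeq2 test (7633), a fit of the compared libraries alone (7476) and the summed hairpin libraries (5098), and was 6852 to 7436 with 1 library left out. Asking also for a log2 fold change of at least 1 left 4786 genes. With 1 library left out, shRNA 1 gave 4336 to 4870 calls, shRNA 2 gave 4336 to 5056 and the control shRNA gave 4034 to 5146, and the control shRNA gave 2911 calls when fitted alone. With the replicate number as a block, the counts were 9462 for both hairpins, 7612 and 7588 for each alone and 7274 for the control. Of the control libraries, those numbered 3 deviated together (r = 0.588), and those numbered 1 (r = -0.614) and 2 (r = -0.309) did not. The difference from the control shRNA gave 2 called genes and depended on the setting: 17 with the DESeq2 test, 8 with the replicate block, and 0 without a filter, with the hairpin libraries summed or without the libraries numbered 3, and 0 to 3 with 1 library left out (2 or 3 without replicate 1 of shRNA 1 in 4OHT or replicate 3 of shRNA 2 in either treatment, otherwise 0 or 1). The block called DDIT3, TCF19, CDC6, HSPA5, METTL7A, TES, ATF3 and C17orf107 for that difference. The highest adjusted p with 1 library left out was 0.184 for TCF19 (without control replicate 2 in 4OHT) and 0.216 for METTL7A (without control replicate 1 in DMSO), and the response of TCF19 under depletion passed with the block (adjusted p = 0.0414) and without the libraries numbered 3 (0.0200). The block changed no other call among the named genes' responses. The difference between the hairpins gave 0 genes under every setting run. Of the 385 called list members, the settings other than the summed libraries kept 360 to 385, the summed libraries kept 317, and 0 reversed. The cause of these shifts was not tested. Genes under 0.132 to 0.232 CPM were below what the depth can show.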
